A study of Mus musculus with 6 samples.

Results

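Transcription factors that set the balance between effector, memory and exhausted states were examined in activated cultures labelled as mouse CD8+ T cells. The cultures were treated with sphingosine-1-phosphate (S1P) or vehicle. The set held 10 factors, listed by name for their known roles: Tbx21, Id2, Prdm1 and Zeb2 as effector factors, Eomes, Tcf7, Lef1, Id3 and Bach2 as memory factors, and Tox as the exhaustion factor. All 10 were found among the 56941 Ensembl identifiers of the count table, and all 10 were among the 13299 genes with enough reads to test. S1P is a lipid that signals through G-protein-coupled receptors on lymphocytes. The sample labels describe naive CD8+ T cells purified from B6 mouse spleen and cultured for 3 days on plate-bound antibodies to CD3 and CD28 with 100 U/ml of IL-2, and the methods of the study also name total splenocytes as a starting material. Activation and IL-2 were common to both groups, and either S1P at 5 µM or vehicle alone was added at 24 h. Each group had 3 libraries of polyadenylated RNA labelled as biological replicates. Whether cells of several animals were pooled is not given in the sources used here.

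CD8+ T cells that meet antigen can become short-lived killer cells or long-lived memory cells, and the choice is set by transcription factors that work against each other. T-bet (from Tbx21), Blimp-1 (from Prdm1), ZEB2 and ID2 favour effector cells, while TCF1 (from Tcf7), LEF1, ID3, BACH2 and eomesodermin (from Eomes) favour naive, memory or progenitor cells. TOX is induced by lasting receptor stimulation and holds cells in the exhausted state. Several of these roles are graded: eomesodermin also drives cytotoxic genes and is high in exhausted cells, ID2 is needed by most T cell subsets, and TOX is also used in T cell development.

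Among the factors are a pair of related T-box genes, Tbx21 and Eomes, that bind alike DNA sequences and were at different levels relative to each other in the 2 groups. Their promoters are shown here because Eomes fell after S1P, by a log2 fold change of -0.86, while Tbx21, at -0.17, was not called. Each window holds the 250 bases before the transcription start site as given by RefSeq (table of GRCm38.p6), and was placed in GRCm39 by exact match. For Tbx21 this is chr11:97006158-97006407 on the minus strand, and for Eomes chr9:118307007-118307256 on the plus strand. Capitals mark an E-box (CANNTG), the site type bound by the E proteins that ID2 and ID3 hold back.
Tbx21: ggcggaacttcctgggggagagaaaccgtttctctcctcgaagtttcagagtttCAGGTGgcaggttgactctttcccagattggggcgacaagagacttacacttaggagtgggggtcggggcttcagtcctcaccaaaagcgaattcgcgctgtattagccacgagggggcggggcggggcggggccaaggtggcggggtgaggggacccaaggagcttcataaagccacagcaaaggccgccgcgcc
Eomes: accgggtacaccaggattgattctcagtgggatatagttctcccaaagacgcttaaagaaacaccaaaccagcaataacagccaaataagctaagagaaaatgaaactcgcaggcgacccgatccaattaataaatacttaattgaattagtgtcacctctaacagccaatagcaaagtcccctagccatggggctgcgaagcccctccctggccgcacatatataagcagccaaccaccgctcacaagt
The Tbx21 window held 1 E-box, 196 bases before the start, and the Eomes window held none. Its GC content was 60.8% against 46.4% for Eomes. Neither window held the TCF and LEF core CTTTGA, the T-box core GGTGTG or the AP-1 and BACH core TGANTCA on either strand. Matches may overlap, as CANNTG and GGTGTG can share bases. Over 32851 RefSeq promoter windows of the same length, 66.2% held CANNTG, 13.8% held CTTTGA, 16.3% held GGTGTG and 6.75% held TGANTCA. A match or its absence describes the letters of the window and nothing of binding.

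Total counts on genes ranged from 12048880 to 17384084 per library. Levels are given as CPM, counts scaled to a common library size with TMM factors, and changes as log2 fold changes of S1P against vehicle from edgeR's quasi-likelihood test, with p-values adjusted over all 13299 genes (Benjamini-Hochberg). Calls required both an adjusted p no higher than 0.05 and a log2 fold change beyond 0.3 in either direction. By this rule 23.1% of all genes tested were called, 12.7% higher and 10.4% lower after S1P. S1P replicate 2 stood apart in its share of mitochondrial counts, at 7.80% against 4.10% to 4.93% in the other libraries. The labelled cell type was checked against marker genes. Cd8a and Cd8b1, the chains of the CD8 co-receptor, were high in all libraries and lower after S1P, by a log2 fold change of -0.67 for Cd8a (222 ± 24.9 to 139 ± 6.59 CPM, SD, n = 3, edgeR adjusted p = 0.000243) and -0.55 for Cd8b1 (edgeR adjusted p = 0.00767). Of the 10 listed CD8 T cell markers, Cd2 rose and Cd8a, Cd8b1 and Trbc1 fell, with a median log2 fold change of -0.18 and a summed level of 2154 to 2417 CPM with vehicle and 1975 to 2175 CPM with S1P. Per kilobase of exon, Cd8a stood at 61.0 CPM, Cd4 at 45.2 CPM and the B cell gene Ms4a1 at 34.6 CPM in vehicle-treated cells. In S1P-treated cells the same measure was 38.3 for Cd8a, 48.6 for Cd4 and 26.5 for Ms4a1. The listed B cell markers ranged from Ebf1 (2.65 with vehicle, 4.03 with S1P) to Igkc (349 with vehicle, 393 with S1P). Genes of CD4 T cells and B cells were thus well expressed in libraries labelled as CD8+ T cells. All 12 listed B cell markers were above the filter, with a summed level of 1393 to 1703 CPM in vehicle libraries and 1454 to 1687 CPM in S1P libraries. Of these 12, Ebf1 rose and Ms4a1 and Cd22 fell. Of the 4 tested CD4 T cell markers, Cd40lg rose by 0.50 (edgeR adjusted p = 0.0134) and Zbtb7b by 0.37 (edgeR adjusted p = 0.00886), and the summed CD4 list stood at 229.8 to 272.8 CPM with vehicle and 252.6 to 319.6 CPM with S1P. Trdc, the only tested gene of 5 listed gamma delta T cell markers, fell (log2 fold change -0.35, edgeR adjusted p = 0.0252). Summed NK cell markers stood at 3.01 to 3.92 CPM with vehicle and 3.09 to 5.18 CPM with S1P, and summed myeloid and dendritic cell markers at 10.7 to 13.5 and 13.0 to 15.7 CPM. Only 2 of 6 NK cell markers and 4 of 12 myeloid and dendritic cell markers had enough reads to test. None of those tested was called. In such bulk RNA, fewer cells of a type and less RNA per cell cannot be told apart.

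Of the 10 factors, 7 were called after S1P, 4 higher and 3 lower, and 8 had groups of 3 libraries that did not overlap. Without S1P replicate 2 the count was 4, with 2 higher and 2 lower, and without vehicle replicate 3 it was 5, with 2 higher and 3 lower. Over all genes tested, 23.1% were called, 12.7% higher and 10.4% lower, and 45.6% had groups that did not overlap. The factors were chosen with earlier results of these data known, so the count describes them and is no test of the set. Of the 4 effector factors, 2 rose (Zeb2 and Id2) and none fell, and of the 5 memory factors, 3 fell (Id3, Eomes and Tcf7) and 1 rose (Lef1). Tox, the exhaustion factor, rose. The median log2 fold change was 0.39 over the effector factors and -0.33 over the memory factors, beside 0.01 over all genes tested. The study drew a heat map from these same libraries that includes Eomes, Id3, Tcf7, Tox and Id2, so their directions are not independent of that choice.

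**Figure D1:**
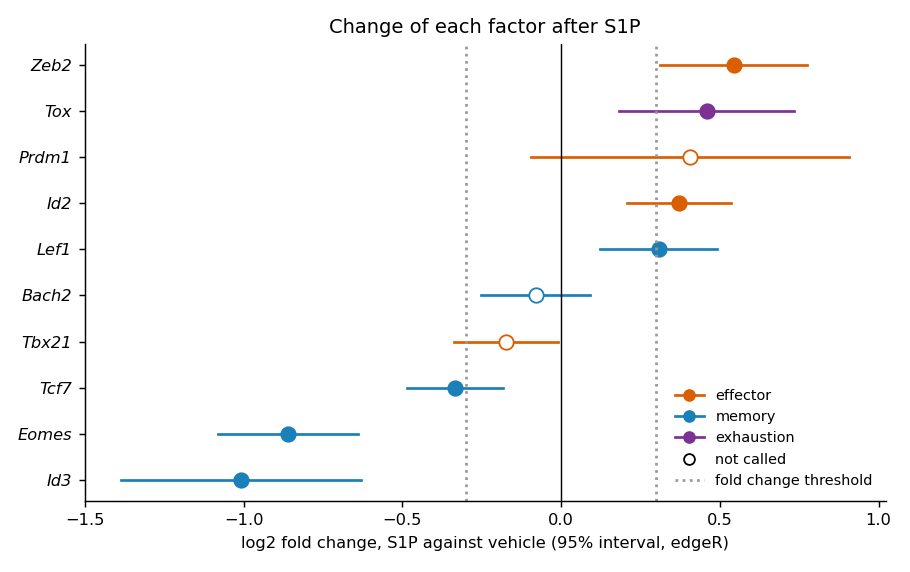
Log2 fold change of each factor, S1P against vehicle, with its 95% interval from edgeR (3 libraries per group), coloured by role. Filled points passed both thresholds and open points did not. Id3 and Eomes lie farthest to the left at -1.01 and -0.86, and Zeb2 farthest to the right at 0.54.

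ID2 and ID3 lack a DNA-binding domain and block E proteins by pairing with them, ID2 in effector cells and ID3 in memory precursors. Id3 (ENSMUSG00000007872, chr4:135870808-135873066, plus strand) stood at 9.97, 10.4 and 8.81 CPM in vehicle replicates 1, 2 and 3 and at 5.57, 3.51 and 5.18 CPM in S1P replicates 1, 2 and 3. The groups did not overlap, and S1P replicate 2 was lowest. Id3 fell from 9.73 ± 0.83 to 4.75 ± 1.09 CPM (SD, n = 3), a log2 fold change of -1.01 (SE 0.17, 95% interval -1.39 to -0.63, edgeR adjusted p = 0.00151). It was a low gene, with 40 to 173 counts per library. Id2 (ENSMUSG00000020644, chr12:25143798-25147282, minus strand) moved the other way. It stood at 47.7, 52.5 and 49.0 CPM with vehicle and at 67.2, 60.3 and 65.0 CPM with S1P, so that every S1P library was above every vehicle library. Id2 rose from 49.7 ± 2.50 to 64.2 ± 3.52 CPM, a log2 fold change of 0.37 (SE 0.07, edgeR adjusted p = 0.00396). Of the exon bases of Id2, 36.2% lie opposite predicted genes on the other strand. Of these, Gm36287 had 0 to 4 counts per library and Gm59395 had no row in the count table. The strand setting of the counting is not given in the sources used here.

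T-bet and eomesodermin share targets such as Ifng and are often read as a ratio. Eomes (ENSMUSG00000032446, chr9:118307280-118315200, plus strand) stood at 62.0, 66.9 and 66.1 CPM in vehicle replicates 1, 2 and 3 and at 31.3, 42.1 and 34.4 CPM in S1P replicates 1, 2 and 3. The highest S1P library, replicate 2, was still well below the lowest vehicle library. Relative to Cd8a and Cd8b1 of the same library, however, the difference was -0.26 and the groups overlapped. Eomes fell from 65.0 ± 2.61 to 36.0 ± 5.56 CPM, a decrease of 45.0% (log2 fold change -0.86, SE 0.10, 95% interval -1.08 to -0.64, edgeR adjusted p = 0.000162). Tbx21 (ENSMUSG00000001444, chr11:96988897-97006158, minus strand) stood at 77.7, 77.2 and 85.8 CPM with vehicle and at 70.0, 67.5 and 75.8 CPM with S1P. The S1P libraries were all below the vehicle libraries, by a small margin. The log2 fold change of Tbx21 was -0.17 (95% interval -0.34 to -0.01) and missed the threshold (edgeR adjusted p = 0.103). With an offset for GC content it was -0.099 (edgeR adjusted p = 0.35). Of Eomes exon bases, 15.0% lie opposite Gm33408 and Gm33460 on the other strand, and Gm33460 had 4 to 14 counts per library.

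TCF1 and LEF1 are related HMG-box factors that keep T cells in naive and stem-like states and commonly go up and down together. Here they parted. Tcf7 (ENSMUSG00000000782, chr11:52143107-52174619, minus strand) stood at 229.7, 230.1 and 228.2 CPM in vehicle replicates 1, 2 and 3 and at 180.6, 169.5 and 195.6 CPM in S1P replicates 1, 2 and 3. The vehicle libraries were nearly equal and all S1P libraries were below them. Tcf7 fell from 229 ± 0.97 to 182 ± 13.1 CPM, a log2 fold change of -0.33 (SE 0.07, 95% interval -0.49 to -0.18, edgeR adjusted p = 0.0046). Lef1 (ENSMUSG00000027985, chr3:130903919-131018005, plus strand) stood at 150.9, 149.0 and 136.0 CPM with vehicle and at 163.5, 201.9 and 174.5 CPM with S1P, again without overlap and with S1P replicate 2 highest. Lef1 rose from 145 ± 8.12 to 179.9 ± 19.7 CPM, a log2 fold change of 0.31 (SE 0.08, 95% interval 0.12 to 0.49, edgeR adjusted p = 0.0188). Both changes lay close to the fold change threshold of 0.3. Without S1P replicate 2, neither reached it, at -0.29 for Tcf7 and 0.22 for Lef1. With an offset for GC content Tcf7 was at -0.26, and relative to Cd8a and Cd8b1 it was higher by 0.26. Scaled by total count only, Lef1 was at 0.28, and with no low count filter at 0.27. The Lef1 call was also lost without vehicle replicate 2 (log2 fold change 0.32, edgeR adjusted p = 0.0541) and without vehicle replicate 3 (0.26, edgeR adjusted p = 0.0992).

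ZEB2 acts with T-bet in terminal effector cells. Zeb2 (ENSMUSG00000026872, chr2:44873644-45007464, minus strand) stood at 24.5, 23.0 and 25.0 CPM in vehicle replicates 1, 2 and 3 and at 32.4, 41.3 and 32.4 CPM in S1P replicates 1, 2 and 3. Every S1P library was above every vehicle library, and replicate 2 was highest. Zeb2 rose from 24.2 ± 1.07 to 35.4 ± 5.16 CPM, a log2 fold change of 0.54 (SE 0.11, 95% interval 0.31 to 0.78, edgeR adjusted p = 0.00324), and by 0.42 without S1P replicate 2. Its relative Zeb1, which is linked to memory cells, also rose, from 53.4 ± 1.19 to 73.3 ± 5.56 CPM (log2 fold change 0.45, edgeR adjusted p = 0.0012).

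TOX was the only factor listed here under exhaustion. The study also names Id2 among its exhaustion genes, while Id2 was counted here with the effector factors. Tox (ENSMUSG00000041272, chr4:6686353-6991644, minus strand) stood at 23.9, 21.4 and 22.7 CPM in vehicle replicates 1, 2 and 3 and at 27.0, 38.4 and 28.7 CPM in S1P replicates 1, 2 and 3. The groups did not overlap, and replicate 2 was far above the other S1P libraries. Tox rose from 22.7 ± 1.23 to 31.4 ± 6.18 CPM, a log2 fold change of 0.46 (SE 0.13, 95% interval 0.18 to 0.73, edgeR adjusted p = 0.0185). Without S1P replicate 2 the log2 fold change was 0.29, below the threshold. The Tox call was also lost without vehicle replicate 2 (log2 fold change 0.42, edgeR adjusted p = 0.0741) and without vehicle replicate 3 (0.46, edgeR adjusted p = 0.064), by the p alone.

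Blimp-1 and BACH2 repress each other's gene in lymphocytes, BACH2 in resting and memory cells and Blimp-1 in effector cells and plasma cells. Both are also used by B cells. Prdm1 (ENSMUSG00000038151, chr10:44313171-44404497, minus strand) stood at 6.80, 10.8 and 5.46 CPM in vehicle replicates 1, 2 and 3 and at 12.2, 7.99 and 9.74 CPM in S1P replicates 1, 2 and 3. The groups overlapped through vehicle replicate 2, which was above both S1P replicates 2 and 3. The log2 fold change of Prdm1 was 0.41 with a wide interval of -0.10 to 0.91 (edgeR adjusted p = 0.209, 85 to 216 counts per library). Without vehicle replicate 2 it was 0.71 and passed the test (edgeR adjusted p = 0.0356), while it was 0.21 without vehicle replicate 3 (edgeR adjusted p = 0.562) and 0.22 without S1P replicate 1 (edgeR adjusted p = 0.519). Bach2 (ENSMUSG00000040270, chr4:32238714-32586108, plus strand) stood at 259.1, 222.5 and 241.0 CPM with vehicle and at 245.9, 214.9 and 222.2 CPM with S1P, with overlapping groups. Its log2 fold change was -0.08, with a 95% interval of -0.25 to 0.09 (edgeR adjusted p = 0.474). With each library left out in turn, the change of Bach2 ranged from -0.14 to -0.03.

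**Figure D2:**
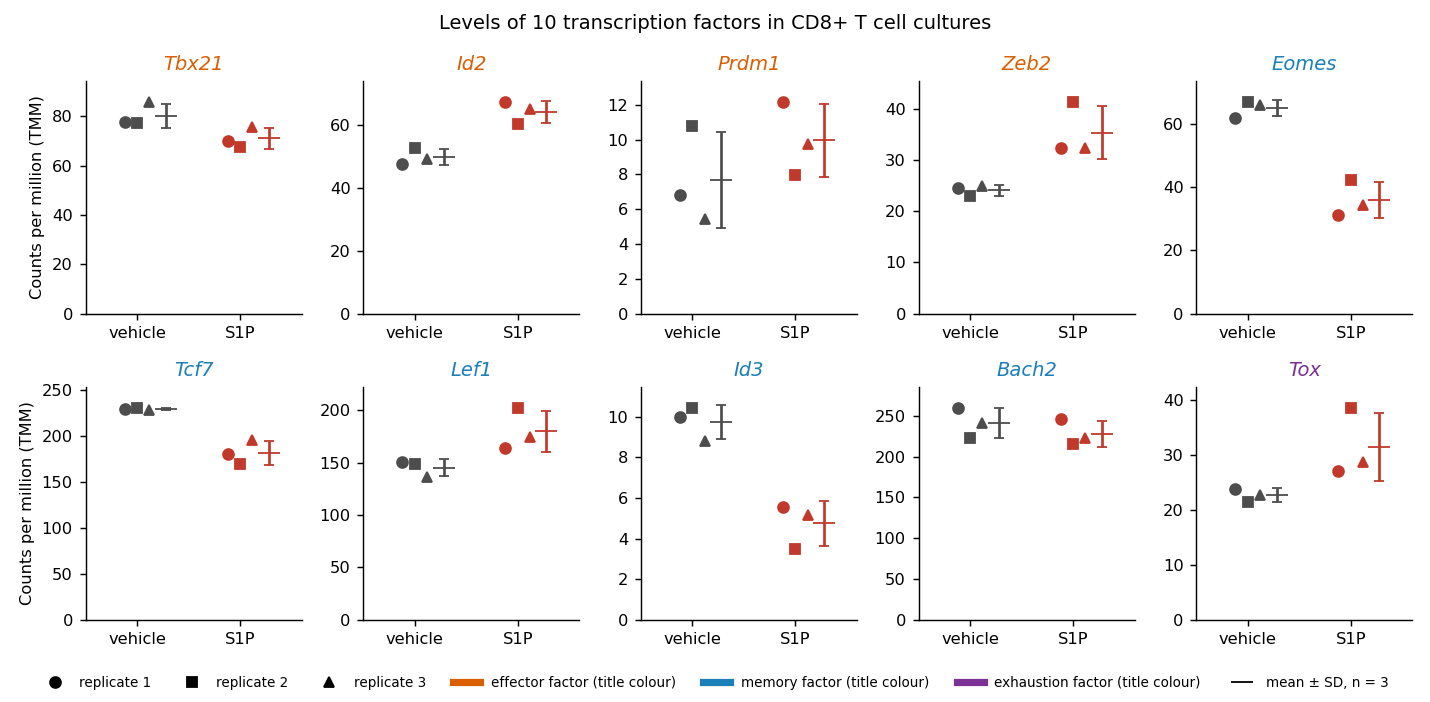
Level of each of the 10 factors in CPM after TMM scaling, in 3 vehicle-treated and 3 S1P-treated libraries, with the mean and SD of each group. Points are single libraries and their shapes give the replicate number. Groups overlap for Prdm1 and Bach2, and S1P replicate 2 (square) is the highest S1P library for Zeb2, Lef1, Tox and Eomes.

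The order of the factors by level was compared per kilobase of exon. In vehicle-treated cells Tcf7 was highest at 59.7 ± 0.25 CPM per kilobase, followed by Tbx21 at 32.2 ± 1.94 and Bach2 at 24.0 ± 1.83. Eomes, Lef1 and Id2 came next at 15.6 ± 0.63, 15.6 ± 0.87 and 14.3 ± 0.72, so that Eomes and Lef1 were within their spread. Id3 (5.43 ± 0.46), Tox (2.92 ± 0.16), Prdm1 (1.37 ± 0.49) and Zeb2 (1.06 ± 0.05) were lowest, the last pair within their spread. After S1P the order of the leading 3 factors was kept, with Tcf7 at 47.4 ± 3.41, Tbx21 at 28.6 ± 1.70 and Bach2 at 22.7 ± 1.62. Below them, Lef1 at 19.3 ± 2.11 and Id2 at 18.4 ± 1.01 stood above Eomes at 8.65 ± 1.34, and Tox at 4.05 ± 0.80 stood above Id3 at 2.65 ± 0.61. Lengths are those of all annotated exons of a gene together, which counts long factors such as Zeb2 low.

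The balance between factors was then read as log2 ratios of CPM within each library, which depend little on how libraries are scaled. In each of the 7 pairs tested, the exact two-sided permutation test over 3 against 3 libraries could not go below 0.1. Id2 over Id3 was 2.24, 2.32 and 2.46 in vehicle replicates 1, 2 and 3 and 3.56, 4.05 and 3.61 in S1P replicates 1, 2 and 3. The groups were far apart, with a difference of 1.40, or 2.64-fold (exact permutation p = 0.1). Tbx21 over Eomes was 0.32, 0.21 and 0.38 with vehicle and 1.16, 0.68 and 1.14 with S1P. This ratio was 1.61-fold higher after S1P, again without overlap (exact permutation p = 0.1). Tcf7 over Lef1 was 0.61, 0.63 and 0.75 with vehicle and 0.14, -0.25 and 0.16 with S1P, lower by 0.64 on the log2 scale and without overlap (exact permutation p = 0.1). Tox over Tcf7, an exhaustion factor over a progenitor factor, was -3.26, -3.42 and -3.32 with vehicle and -2.74, -2.14 and -2.76 with S1P. Its difference of 0.79 left the groups apart (exact permutation p = 0.1). Tbx21 over Tcf7 differed by 0.16 without overlap (exact permutation p = 0.1). Zeb2 over Zeb1 differed by 0.09 with overlapping groups (exact permutation p = 0.4), and Prdm1 over Bach2 by 0.49 with overlapping groups (exact permutation p = 0.3). The last difference was 0.81 without vehicle replicate 2 and 0.27 without vehicle replicate 3. With each library left out in turn, Zeb2 over Zeb1 differed by 0.03 to 0.13. No p was adjusted over the 7 pairs, since none could pass.

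Averaged over roles, mean log2 CPM of the 4 effector factors minus that of the 5 memory factors was -1.66, -1.47 and -1.61 in vehicle replicates 1, 2 and 3 and -0.85, -0.92 and -0.93 in S1P replicates 1, 2 and 3. The S1P libraries lay close together and above all vehicle libraries, with group means of -0.90 ± 0.04 and -1.58 ± 0.10 (SD, n = 3) and a difference of 0.69. Tox minus the memory mean was -1.89, -2.04 and -1.90 with vehicle and -1.29, -0.75 and -1.23 with S1P, a difference of 0.85. These averages describe the chosen factors and carry no test. Within them the memory factors did not move as 1 group, since Lef1 rose and Bach2 was not called. Nor did the effector factors, since Tbx21 was lower in every S1P library and neither Tbx21 nor Prdm1 was called.

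**Figure D3:**
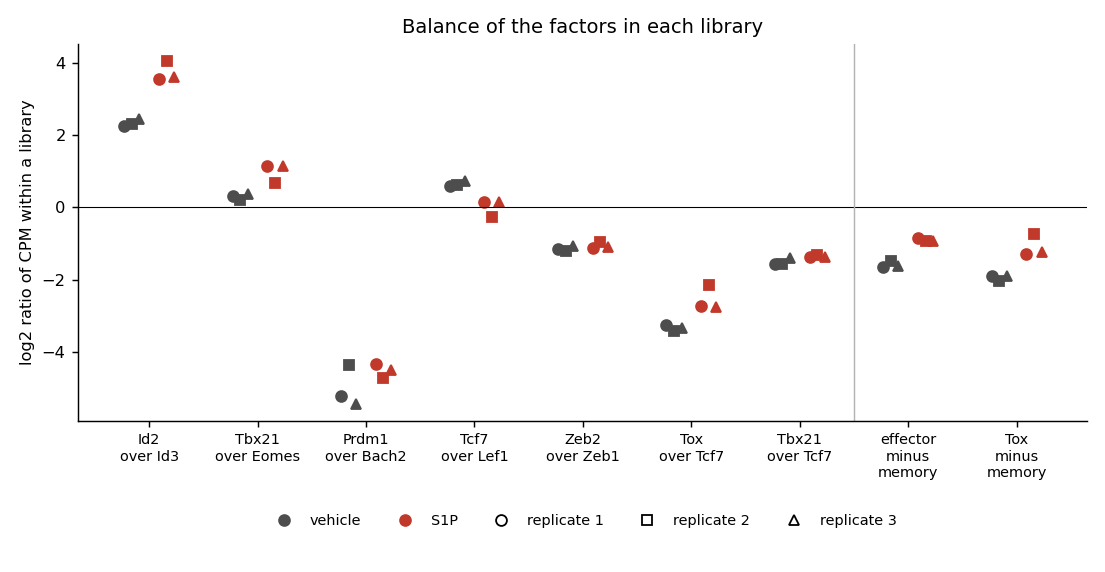
Log2 ratio of CPM within each library for 7 pairs of genes, and, right of the line, the mean log2 CPM of the effector factors, or of Tox, minus that of the memory factors. Points are single libraries, 3 per group. Groups overlap for Prdm1 over Bach2 and Zeb2 over Zeb1, and S1P libraries are higher in all others but Tcf7 over Lef1, where they are lower.

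Because Cd8a and Cd8b1 fell with S1P, each factor was also set against marker genes of its own library, a comparison chosen after the values were seen and described with no test. The mean log2 CPM of Cd8a and Cd8b1 was 7.20, 7.58 and 7.18 in vehicle replicates 1, 2 and 3 and 6.80, 6.62 and 6.74 in S1P replicates 1, 2 and 3. This mean differed by -0.60 between the groups. The reference therefore raises every factor alike by about that amount, and any smaller fall turns into a rise. Relative to this pair, Id3 was still lower after S1P without overlap, by a difference of -0.44. Eomes differed by -0.26 with overlapping groups. Tcf7, Tbx21 and Bach2 turned from lower to higher without overlap, at 0.26, 0.43 and 0.52, and Id2, Lef1, Tox and Zeb2 were higher by 0.97, 0.90, 1.05 and 1.14. Relative to the T cell receptor genes Cd3d, Cd3e, Cd3g and Trac, picked from the 10 CD8 T cell markers and with a mean that differed by -0.11 between the groups, all 7 called factors kept their direction without overlap, from -0.93 for Id3 to 0.65 for Zeb2. Relative to the B cell genes Cd79a, Cd79b and Ms4a1, picked from the 12 B cell markers and with a mean that differed by -0.25 where the median of the 12 was -0.06, the difference was -0.08 with overlap for Tcf7 and kept direction without overlap for the other 6. The part of other cell types in these results was not tested.

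**Figure D4:**
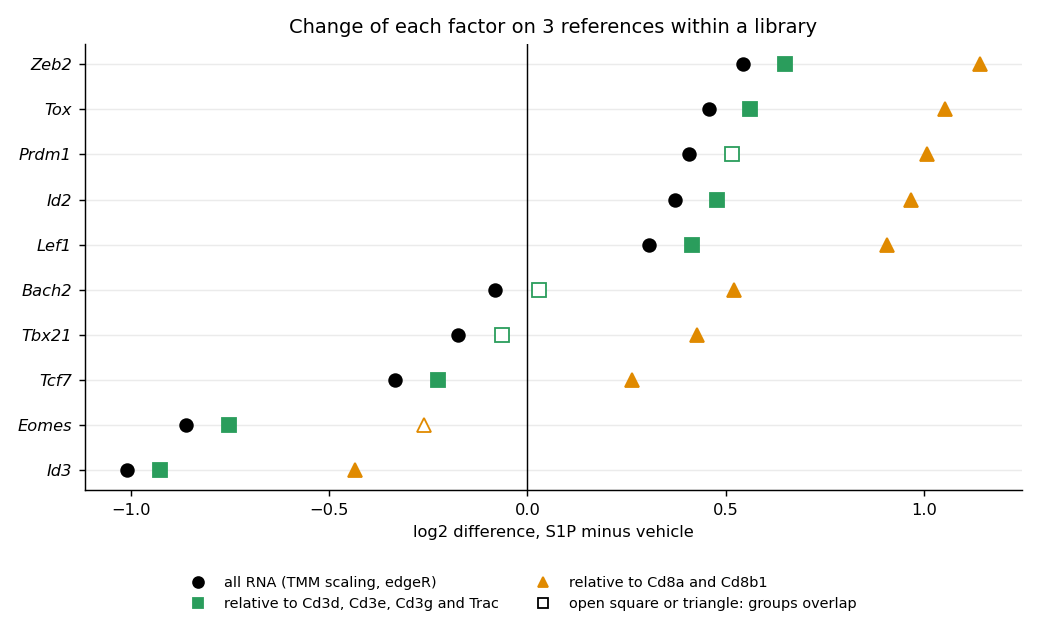
Difference between S1P and vehicle for each factor on the log2 scale, taken over all RNA (circles, edgeR), over the mean of Cd3d, Cd3e, Cd3g and Trac (squares) and over the mean of Cd8a and Cd8b1 (triangles). Open squares and triangles mark groups that overlap. Id3 and Eomes lie left of 0 on all 3 references, and Tcf7 crosses from -0.33 over all RNA to 0.26 over the CD8 genes.

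Partner factors, which bind with or control the 10, were described from a list of 32 genes. Of the 30 tested, 8 rose, 1 fell and 21 were not called, with a median log2 fold change of 0.15, beside 12.7% higher and 10.4% lower over all genes tested. The largest rises were those of Nfil3, a repressor used in cytokine-driven lymphocyte fates (35.6 ± 6.24 to 77.4 ± 7.53 CPM, log2 fold change 1.12, edgeR adjusted p = 9.0e-05), and of Bhlhe40, a repressor that supports mitochondrial fitness and cytokine production in T cells (139 ± 19.1 to 302 ± 24.1 CPM, log2 fold change 1.12, edgeR adjusted p = 3.7e-05). Gata3, the master factor of type 2 helper cells, rose by 0.63, Satb1, a chromatin organizer of T cells, by 0.56, and Runx3, which sets the CD8 lineage and works with T-bet, by 0.54. Tle4, a corepressor that TCF1 and LEF1 recruit, fell by 0.36 on the log2 scale. The remaining 3 called genes (Stat3, Zeb1 and Tcf4) rose.

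Of 15 further factors linked to exhaustion, 14 were tested, 2 rose and none fell, with a median of -0.0040. This is near the 12.7% called higher over all genes tested. Klf10, which acts in TGF-β signalling, rose from 14.8 ± 0.89 to 22.9 ± 1.16 CPM (log2 fold change 0.63, edgeR adjusted p = 0.000756). Ikzf2, the Helios gene, rose from 18.7 ± 1.78 to 26.0 ± 3.04 CPM (log2 fold change 0.49, edgeR adjusted p = 0.00725). Both are on the study's heat map. Of the 12 inhibitory and exhaustion receptors, 1 rose and 2 fell, near the 23.1% called over all genes tested. Their median log2 fold change was 0.24. Ctla4 rose from 254 ± 69.3 to 487 ± 16.4 CPM (log2 fold change 0.94, edgeR adjusted p = 0.000826). Pdcd1, which encodes PD-1, fell from 50.7 ± 1.58 to 30.2 ± 3.40 CPM (log2 fold change -0.74, edgeR adjusted p = 0.000206), and Cd160 fell from 32.3 ± 6.09 to 17.2 ± 2.04 CPM (log2 fold change -0.91, edgeR adjusted p = 0.000866).

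Among genes known as targets of the effector factors, more fell than rose. Of 20 listed, 16 were tested, 2 rose, 7 fell and 7 were not called, beside 12.7% higher and 10.4% lower over all genes tested. The median log2 fold change was -0.23, and -0.12 with no low count filter. Klrg1, Cx3cr1, Gzmk and S1pr5 were too low to test. The largest falls were those of the chemokine receptor gene Cxcr3 (-1.49), the chemokine genes Ccl3 (-1.21) and Ccl4 (-1.05), the granule gene Nkg7 (-0.90) and the IL-18 receptor gene Il18rap (-0.56). Il12rb2, an IL-12 receptor chain, rose by 0.73 and Ccl5 by 0.69, and exons of Il12rb2 lie in part opposite Serbp1 on the other strand. The effector list thus had more called falls than rises while Id2 and Zeb2 rose. Cd8a and Cd8b1 also fell in these libraries, with log2 fold changes of -0.67 and -0.55. Whether that fall bears on this list was not tested.

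Among genes kept on in naive and memory cells, more rose than fell. All 20 listed were tested, 8 rose, 3 fell and 9 were not called, beside 12.7% higher and 10.4% lower over all genes tested. The median log2 fold change was 0.19. Socs3, a cytokine feedback inhibitor, rose by 0.84, and Bcl2, a survival gene, by 0.67 (232 ± 18.1 to 368 ± 17.4 CPM). Il7r, the receptor of a survival cytokine, rose by 0.56 and Ccr7, a lymph node homing receptor, by 0.43. Xcl1, a chemokine gene of progenitor-like CD8+ T cells, fell by 1.76 on the log2 scale, Slamf6, a marker of the same cells, by 0.57, and Il27ra by 0.35. Several of the genes in these lists (Cxcr3, Xcl1 and Il27ra among them) are on the study's heat map of these libraries. B cells also use Bcl2 and Ccr7, and of the 12 B cell markers 1 rose and 2 fell. Their part in these counts was not tested.

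**Figure D5:**
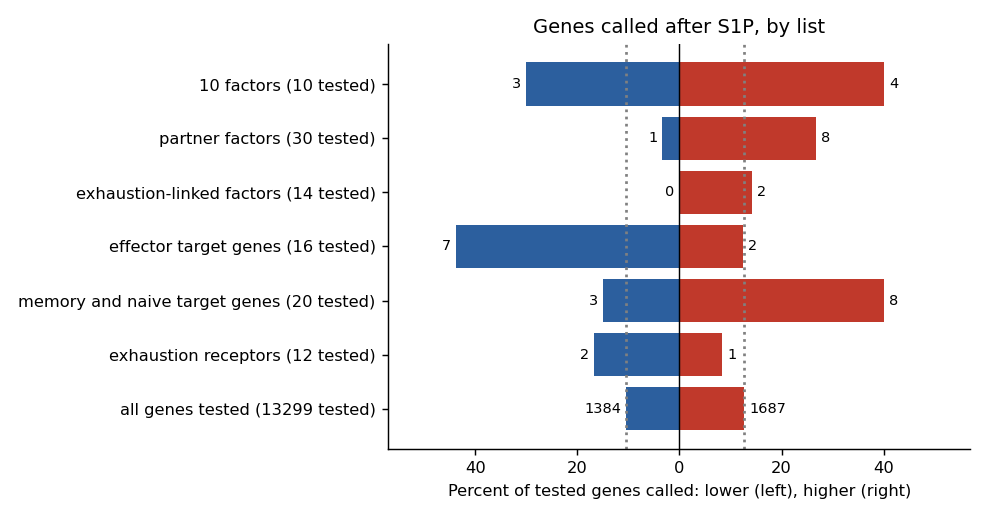
Percent of the tested genes of each list called lower (left) or higher (right) after S1P, with the number of genes at each bar. Dotted lines mark the share over all 13299 genes tested, 10.4% lower and 12.7% higher. Effector target genes reach to the left with 7 of 16, and memory and naive target genes reach to the right with 8 of 20.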

How the data were processed

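Gene counts of 6 libraries were used. Libraries were strand-specific and from polyadenylated RNA, per the labels. The submitters' processing notes name Trim Galore, STAR, featureCounts, DESeq2 and GRCm39. The deposited values are whole-number counts per Ensembl identifier, not normalized. Which annotation release was counted, and whether by strand, is not given in the sources used here. Symbols and positions came from GENCODE (GRCm39), which held 56323 of 56941 identifiers.

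Counts were filtered with filterByExpr, scaled with TMM and tested in R 4.3.3 with edgeR 4.0.16 and limma 3.58.1, by treatment alone. For ratios, 2 was the prior count in log2 CPM. p-values measure the spread between these 3 libraries per group. On simulated counts for 13091 genes with these library sizes, edgeR recovered 80 of 97 genes changed by a log2 fold change of 1 and 50 of 98 changed by 0.5, with 8 false calls. A far smaller share of genes changed in the simulation than the 23.1% called in the data, so these rates need not hold here. Alternatives were DESeq2 1.42.0, limma-voom, other factors and filters, a GC offset, a replicate block and each library left out in turn. The factors and lists were chosen with earlier results of these data known. The text names all 10 factors and, of each list of partner, target and receptor genes, up to 5 called genes with the largest change in each direction. Stat3, Zeb1, Tcf4 and the marker genes beside results were named apart from that rule or as the rest of a count. Some genes of the lists are not reported here by name.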

Additional observations from a re-analysis of the deposited data

How the results depend on the processing

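Across 160 alternative fits of the 10 factors none changed direction, and 148 kept their side of the threshold. Id2, Zeb2, Eomes and Id3 kept their calls in all 16 alternatives each. Tcf7 missed the fold change threshold with a GC offset (-0.26) and with a GC offset and replicate block (-0.27). Lef1 missed it with total count only (0.28) and with no low count filter (0.27). The cause was not tested.

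Leaving out each library in turn gave -0.40 to -0.29 for Tcf7, 0.22 to 0.37 for Lef1, 0.29 to 0.56 for Tox and 0.21 to 0.71 for Prdm1. The number of factors called was then 4 to 7 and the number called higher 2 to 4, lowest without S1P replicate 2 and, for those called higher, also without vehicle replicate 3. At a log2 fold change of at least 1, 1 factor was called, Id3, with 1 lower and 0 higher (edgeR, adjusted p of at most 0.05). With no fold change threshold 7 were called.

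Relative to Cd8a and Cd8b1, a reference chosen after seeing the data, differences were 0.43 for Tbx21 (turned), 0.97 for Id2, 1.01 for Prdm1, 1.14 for Zeb2, -0.26 for Eomes, 0.26 for Tcf7 (turned), 0.90 for Lef1, -0.44 for Id3, 0.52 for Bach2 (turned) and 1.05 for Tox. Relative to the B cell genes Cd79a, Cd79b and Ms4a1 they were 0.078 for Tbx21 (turned), 0.62 for Id2 and 0.79 for Zeb2. They were -0.61 for Eomes, -0.085 for Tcf7, 0.56 for Lef1 and 0.17 for Bach2 (turned). The other 3 factors differed from their values over all RNA by less than 1 SD of replicates. The mean of these B cell genes differed by -0.25, where the median of the 12 B cell markers was -0.06.

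Same-numbered libraries of the 2 groups correlated at 0.12, -0.01 and 0.05 in their deviations from the group means. Libraries with different numbers correlated at -0.10 to 0.05. With so few libraries, these values cannot tell whether those of the same number shared animals or a batch. With the replicate block 7 factors were called, and 1697 genes were higher and 1423 lower, against 1687 and 1384 without it. All ratios of pairs kept their direction under other prior counts and without each library. Medians of the lists moved by more than the replicate spread in 13 of 120 settings. Counts per library were 40 to 173 for Id3 and 85 to 216 for Prdm1.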
